A study of Mus musculus with 6 samples.

Results

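Lysosome and autophagy genes were followed in RNA of whole mouse pancreatic islets with and without Klf4 in alpha cells. The set holds 39 genes, listed by symbol as lysosomal hydrolases, lysosomal membrane proteins, autophagy machinery and the transcription factors that act on them. All 39 were found among the 55536 genes of the count table, and all 39 were given an adjusted p-value. Islets hold several hormone cells: insulin comes from beta, glucagon from alpha and somatostatin from delta cells. The control group (3 libraries) has the genotype Klf4+/+;Gcg-iCre and the knockout group (3 libraries, Klf4-alphaKO) the genotype Klf4fl/fl;Gcg-iCre. The labels spell the strain C57B1/6J for both groups. Both groups carry Gcg-iCre, a Cre recombinase driven by the glucagon gene, so deletion is directed to alpha cells while RNA was taken from all islet cells. The labels give neither the age of the mice nor whether animals were pooled. The p-values set the group difference against the spread within groups of 3 libraries, which may not be the spread between mice. The comparison asks which transcripts depend on KLF4, a zinc-finger transcription factor, in alpha cells.

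Lysosomes are acidic compartments in which hydrolases degrade proteins, glycogen, lipids and glycoconjugates delivered by endocytosis or autophagy. In autophagy a double membrane forms around cytoplasm, is decorated with lipid-linked Atg8 proteins (the LC3 and GABARAP families) and fuses with the lysosome. Islet endocrine cells also send surplus secretory granules to lysosomes, a route known as crinophagy.

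Totals ran from 101277200 to 110243918 counts per library, so 3 counts, the floor used here for detection, correspond to 0.0272 to 0.0296 CPM, the count scaled to the library total; this covers counting error only. Counts below are normalized by DESeq2 size factors unless a level is given per length. Values per library are given in the order of replicates 1 to 3. Klf4 itself had 3148, 2879 and 2015 normalized counts in controls against 2340, 2540 and 2277 in knockouts, so the groups overlapped and the whole-islet count did not separate the genotypes (DESeq2 adjusted p = 0.774). Without control replicate 3 that adjusted p was 0.00568. The libraries also differ in sex-linked RNA: Xist was at 77938 to 108105 normalized counts in controls and 12.4 to 30.2 in knockouts, and 4 Y-linked genes (Ddx3y, Uty, Eif2s3y and Kdm5d) summed to 0 in every control and to 16141 to 16391 in knockouts. In every difference below, genotype cannot be told apart from sex. On the first principal component of all genes with a mean of at least 50 normalized counts (54.0% of the variance), controls lay between -25.8 and -24.3 and knockout replicates 1 to 3 at 62.5, 20.2 and -7.00. The hormone markers Gcg, Ins2 and Sst were abundant in all libraries, in keeping with the islet label, and 5 of 7 lymphocyte markers were at 0 in at least 1 library.

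As a group the 39 genes were close to level. Only Lipa, the gene of lysosomal acid lipase, passed the threshold of a DESeq2 adjusted p of 0.05, and it was higher in knockouts; no member passed as lower. That is 2.56% of the members, beside 2.19% of all genes tested (1.53% as higher and 0.657% as lower). The edgeR quasi-likelihood test called 0 members and 0.115% of all genes. At an unadjusted p under 0.05 there were 5 members in either tool (12.8%), beside 12.2% of all genes with a mean of at least 50 normalized counts in DESeq2. The median log2 fold change of knockout against control was 0.037 over the members and -0.0061 over all genes given an adjusted p. Estimates ran from -0.20 (Wipi1) to 0.47 (Lipa), with 25 above 0 and 14 below. Over all genes given an adjusted p, 8610 were above 0 and 9187 below. In 8 members (20.5%) the 3 knockout libraries did not overlap the 3 controls, 7 of them higher and 1 lower. Among the 15811 genes with a mean of at least 50 normalized counts this share was 18.0%, with 1489 higher and 1351 lower. With both directions pooled, the shares at an unadjusted p and without overlap thus lay near those of all genes. By direction, the members without overlap leaned to higher more than all genes did, which was not tested.

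The 95% intervals bound the size of change in whole-islet RNA that these values allow. They do not bound a change within alpha cells, because RNA of all islet cells was counted together. For 32 of the 39 members (82.1%) the whole interval lay between 20% lower and 25% higher, called the narrower bound here, and for 37 it lay within 1.5-fold. Among the 10616 genes in the members' range of mean counts (665 to 142242 normalized counts), 68.0% had intervals within the narrower bound and 94.3% within 1.5-fold. The members outside the narrower bound were Tfeb, Mitf, Ctsh, Ctss, Lipa, Wipi1 and Map1lc3a, and those outside the wider one Ctsh and Lipa.

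**Figure D1:**
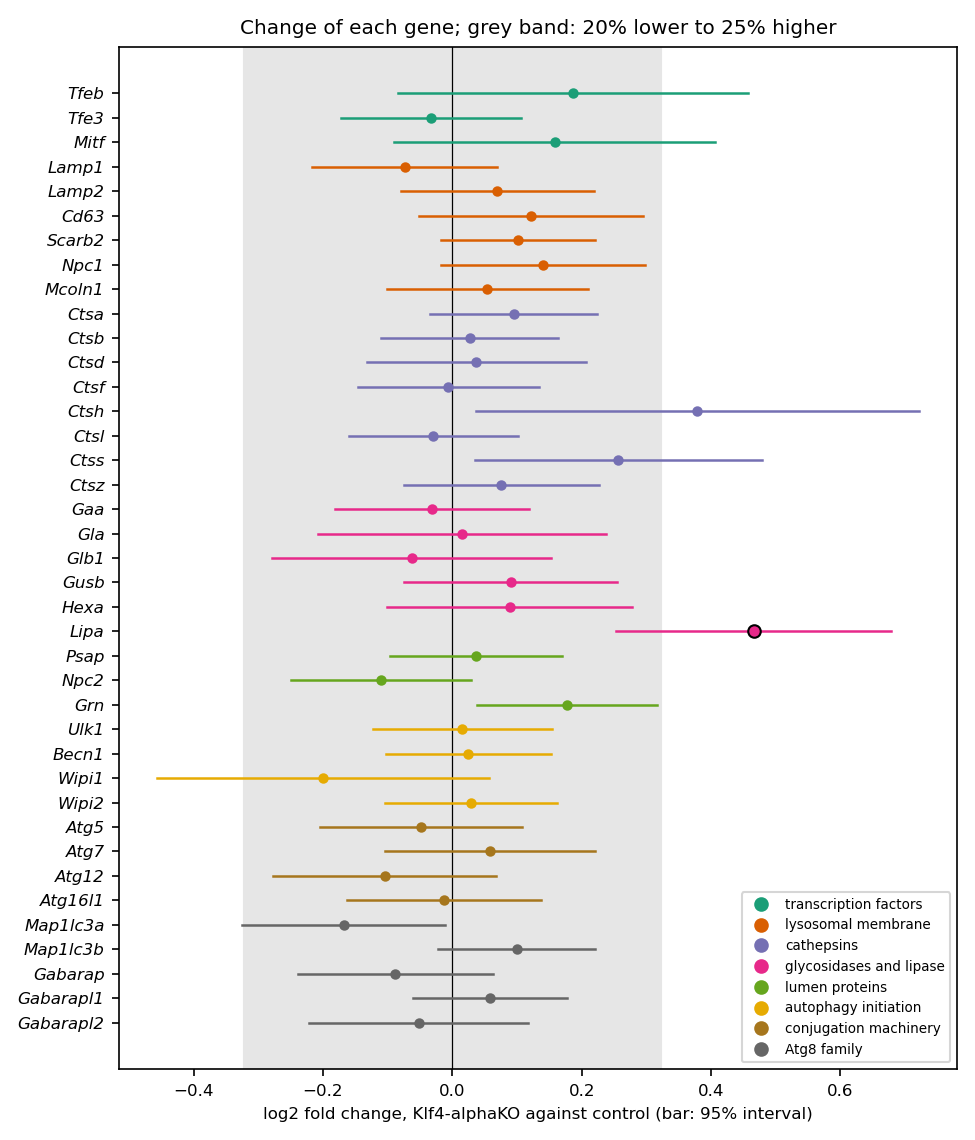
Log2 fold change of Klf4-alphaKO against control (x axis) for each of the 39 genes (rows, coloured by role), with 95% intervals from DESeq2; the grey band runs from 20% lower to 25% higher. Lipa, ringed in black at 0.47, is the single member past the threshold, and 32 intervals lie wholly inside the band.

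Levels per length spanned a wide range. They are given as TPM, transcript levels scaled for gene length and library total, computed from the counts and the union of all annotated exons, which understates genes with long rare exons. Psap, the precursor of the saposins that help hydrolases reach sphingolipids, was the most abundant member at 1180 ± 98.2 TPM (SD, n = 3) in controls and 1211 ± 25.5 (SD, n = 3) in knockouts. Lamp1 followed at 555 ± 41.5 and 527 ± 10.2 TPM, then Gabarap at 332 ± 16.3 and 313 ± 10.8 TPM. At the other end stood Tfeb at 2.54 ± 0.41 and 2.88 ± 0.11 TPM and Mitf at 3.53 ± 0.38 and 3.95 ± 0.50 TPM. Neighbours in this order often overlapped within their spread, such as Ctsd and Gaa at 140 ± 11.4 and 140 ± 13.1 TPM in controls. Together the 39 genes took between 0.532% (control replicate 2) and 0.576% (knockout replicate 3) of a library's counts.

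**Figure D2:**
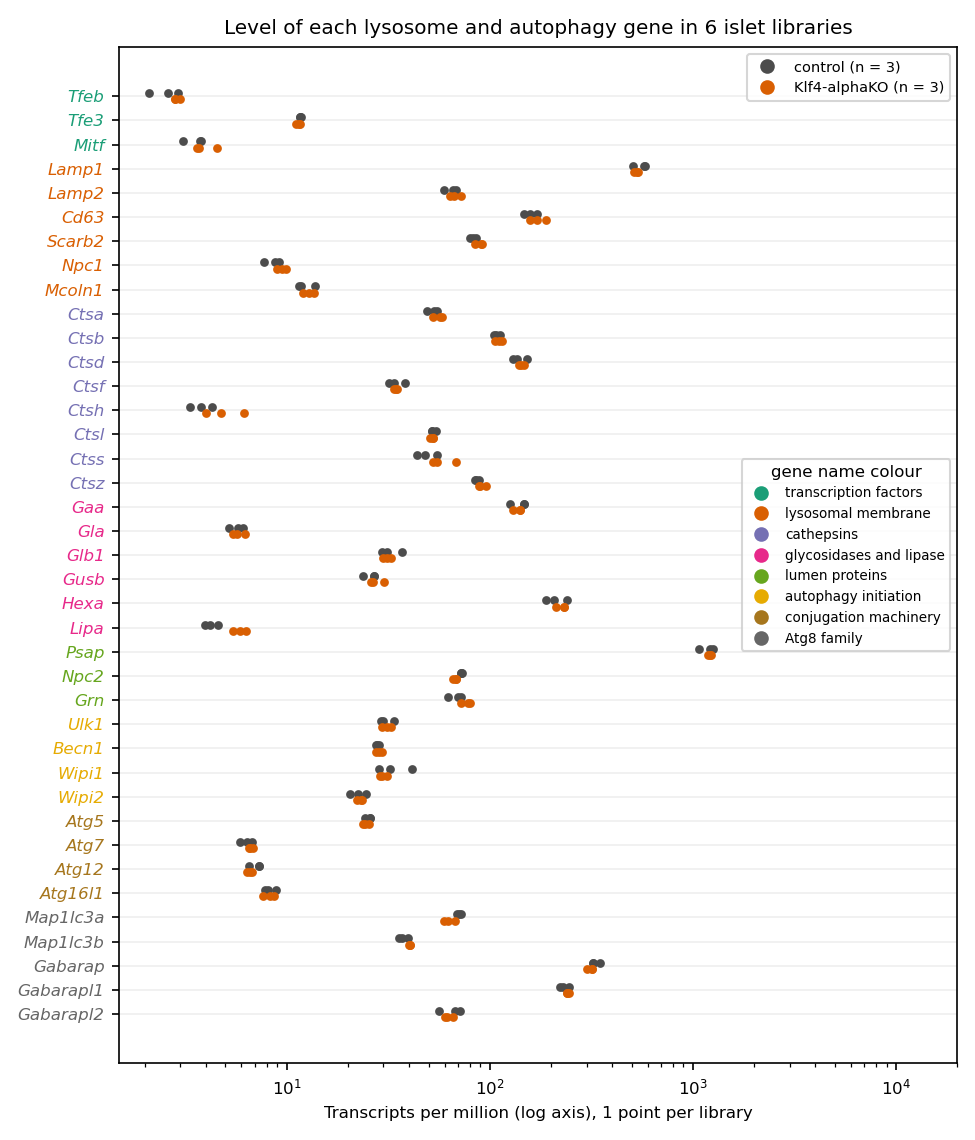
Level of each of the 39 genes in TPM (x axis, log scale), with 1 point per library, controls in grey and Klf4-alphaKO in orange; names are coloured by role. Levels run from 2.54 TPM for Tfeb to 1180 TPM for Psap in control means, and the groups are visibly apart for Lipa.

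Transcription factors came first in the order of roles. Tfeb, Tfe3 and Mitf encode basic helix-loop-helix factors that bind an E-box with a flanking base, the core of the CLEAR element (coordinated lysosomal expression and regulation), in promoters of lysosomal genes. Tfe3 had 4492, 4850 and 4775 normalized counts in controls, and 4614, 4600 and 4586 in knockouts. Its knockout values lay inside the control range, and the interval of the change ran from -11.3% to 7.67%. Tfeb had 677, 537 and 653 normalized counts in controls and 689, 758 and 677 in knockouts. Control replicate 2 was the low one, and knockout replicate 3 lay just under control replicate 1, so the groups overlapped. Mitf had 947, 863 and 1036 normalized counts in controls and 990, 997 and 1188 in knockouts, with overlapping groups. The DESeq2 adjusted p was 0.702 for Tfeb, 0.946 for Tfe3 and 0.74 for Mitf. Per length, Tfe3 made up 65.9% ± 2.79 (SD, n = 3) of the TPM of these 3 genes in controls and 62.7% ± 1.2 (SD, n = 3) in knockouts. Tfec, a further family member, was at 0 counts in every control library and at 9.44, 2.06 and 3.99 normalized counts in knockouts, and was given no adjusted p.

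Promoter windows from RefSeq (GRCm38.p6, 250 bases before to 50 bases after each annotated start, 300 in all) were searched for the E-box CACGTG and for the extended form TCACGTG, on both strands; every extended match holds the shorter one. Windows were found for 32 of the 39 members, 39 windows in all. The extended form occurred in 8 of the 32 members (25%), namely Atg7, Ctsa, Ctsd, Gaa, Gla, Glb1, Lamp1 and Mcoln1, and in 4.29% of the 27025 genes with a window; per window the shares were 20.5% and 3.77%. The shorter E-box was in 11 members (34.4%) and 8.09% of all genes. None of the 8 members with the extended form passed the threshold. Their median log2 fold change was 0.026, from -0.074 to 0.095, and that of the 24 members with a window and no such match was 0.064, from -0.20 to 0.47. A match is a string of letters, not a measured binding site.

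The stretches before the start are shown for Lamp1, which holds 4 matches, for Atg7 and Glb1 as members with a single match, and for Lipa, the member that passed the threshold, whose window holds none. Each is printed 5′ to 3′ on the gene's strand, with matches to TCACGTG or its reverse complement in capitals. The Atg7 stretch lies inside the annotated gene, before a RefSeq start well downstream of the gene's annotated 5′ end; the Ctsa match shown after it also belongs to the downstream of 2 RefSeq starts.
Lamp1 (chr8:13158911-13159160, + strand): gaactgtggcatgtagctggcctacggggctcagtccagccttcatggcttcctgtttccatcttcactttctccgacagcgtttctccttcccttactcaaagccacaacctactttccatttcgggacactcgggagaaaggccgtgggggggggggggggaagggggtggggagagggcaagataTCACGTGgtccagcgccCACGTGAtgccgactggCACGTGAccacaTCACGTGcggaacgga
Atg7 (chr6:114670846-114671095, + strand): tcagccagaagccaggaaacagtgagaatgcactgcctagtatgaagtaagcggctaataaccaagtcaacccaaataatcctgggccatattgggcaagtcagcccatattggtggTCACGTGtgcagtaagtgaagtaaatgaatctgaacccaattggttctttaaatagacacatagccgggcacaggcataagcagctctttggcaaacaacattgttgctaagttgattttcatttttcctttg
Glb1 (chr9:114400828-114401075, + strand): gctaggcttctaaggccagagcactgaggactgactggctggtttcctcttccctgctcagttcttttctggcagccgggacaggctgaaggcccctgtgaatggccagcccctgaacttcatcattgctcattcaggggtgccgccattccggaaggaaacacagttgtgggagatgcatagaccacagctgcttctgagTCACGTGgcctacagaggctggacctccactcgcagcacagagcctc
Lipa (chr19:34527475-34527724, - strand): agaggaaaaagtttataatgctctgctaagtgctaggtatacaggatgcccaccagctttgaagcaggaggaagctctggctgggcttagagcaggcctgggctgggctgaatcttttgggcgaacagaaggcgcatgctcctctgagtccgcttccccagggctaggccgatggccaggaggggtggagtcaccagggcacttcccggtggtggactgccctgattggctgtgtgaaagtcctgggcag
The Lamp1 matches all lie in the part of the stretch nearest the start. For the other 5 members with a match, the 30 bases around the one nearest the start are shown.
Ctsa (chr2:164833766-164833795, + strand): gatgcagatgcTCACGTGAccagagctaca
Ctsd (chr7:142387908-142387937, - strand): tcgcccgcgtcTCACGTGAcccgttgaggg
Gaa (chr11:119267811-119267840, + strand): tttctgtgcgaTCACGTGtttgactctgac
Gla (chrX:134601182-134601211, - strand): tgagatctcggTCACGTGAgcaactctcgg
Mcoln1 (chr8:3500462-3500491, + strand): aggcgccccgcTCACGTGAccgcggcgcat
In Ctsa, Ctsd, Gla and Mcoln1 the capitals read the same on both strands over 8 bases.

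Among lysosomal membrane proteins, no member passed. Scarb2, the receptor that carries glucocerebrosidase to lysosomes, was at 22011, 22624 and 23136 normalized counts in controls and 24477, 23671 and 24567 in knockouts. Every knockout library was above every control, but the estimate was small, 7.30% (95% interval -1.22% to 16.6%; DESeq2 adjusted p = 0.565). Npc1, the membrane protein of cholesterol export, showed the same arrangement at 4255, 3937 and 4424 against 4837, 4497 and 4565 normalized counts (adjusted p = 0.533). Its soluble partner Npc2 had an estimate on the other side of 0, -7.37% (-15.9% to 2.00%). The structural glycoprotein Lamp1 was at 63625, 60969 and 68555 normalized counts in controls and 61202, 63758 and 58536 in knockouts, with overlapping groups. Lamp2, the tetraspanin Cd63 and the calcium channel gene Mcoln1 had log2 fold changes of 0.07, 0.12 and 0.05 and overlapped as well. All 6 intervals of this group lay within the narrower bound.

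The 8 cathepsins are among the proteases of the lysosome: Ctsd is an aspartic protease, Ctsa a serine carboxypeptidase and the others cysteine proteases. None passed, and 6 of the 8 intervals lay within the narrower bound. Ctsa, Ctsb, Ctsd, Ctsf, Ctsl and Ctsz had log2 fold changes from -0.03 to 0.09. Ctss, the cathepsin of antigen presentation, was at 3081, 2694 and 2911 normalized counts in controls and 4021, 3176 and 3177 in knockouts. Its groups did not overlap, but knockout replicate 1 stood above the others. The log2 fold change was 0.26 ± 0.11 (SE, DESeq2 adjusted p = 0.306). Ctsh, an aminopeptidase, was at 698, 871 and 670 normalized counts in controls and 1193, 952 and 767 in knockouts. Here knockout replicate 3 fell among the controls and replicate 1 was again the highest (log2 fold change 0.38 ± 0.17, adjusted p = 0.348). Without knockout replicate 1 the estimates were 0.13 for Ctss and 0.20 for Ctsh.

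Glycosidases and lipase gave the only call. Lipa (ENSMUSG00000024781, chromosome 19, 34492318 to 34527474, minus strand, GRCm38) hydrolyses cholesteryl esters and triglycerides in the lysosome. Its normalized counts were 1172, 1400 and 1188 in controls, and 1722, 1649 and 1823 in knockouts. All knockout values were above all controls, and control replicate 2 was the highest control. The means were 1253 ± 127 and 1731 ± 87.4 normalized counts (SD, n = 3 each), a rise of 38.1% (95% interval 19.2% to 60.0%; log2 fold change 0.47 ± 0.11 SE, DESeq2 adjusted p = 0.00237). The call was lost in edgeR (adjusted p = 0.177), without knockout replicate 1 (DESeq2 adjusted p = 0.0509) and without knockout replicate 3 (0.0508), while the estimate stayed between 0.42 and 0.55 when single libraries were left out. Per length Lipa was among the scarcer members, at 4.25 ± 0.32 and 5.90 ± 0.44 TPM. No annotated gene overlaps it.

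The other hydrolases of sugars did not pass. Gaa, which degrades lysosomal glycogen, had 29136 ± 2193 normalized counts in controls and 28509 ± 718 in knockouts. Hexa, a hexosaminidase subunit, was at 17047, 16972 and 21179 normalized counts in controls and 20092, 18939 and 19670 in knockouts. Control replicate 3 was the highest of the 6 for Hexa; without it the DESeq2 adjusted p was 0.00554 in place of 0.839. Gla (alpha-galactosidase), Glb1 (beta-galactosidase) and Gusb (beta-glucuronidase) had log2 fold changes of 0.01, -0.06 and 0.09.

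Of the proteins of the lumen, Grn encodes progranulin, a secreted precursor cleaved into granulins in the lysosome. Grn was at 10250, 9725 and 10711 normalized counts in controls and 11939, 11208 and 11558 in knockouts, without overlap. The change of 13.1% (95% interval 2.72% to 24.5%) did not pass over all genes (DESeq2 adjusted p = 0.208), and passed without control replicate 3 (0.0122). Fam171a2 overlaps Grn from the other strand, which leaves the count of Grn uncertain. Psap, from the same compartment, had 141001, 131828 and 148406 normalized counts in controls and 143812, 144679 and 143727 in knockouts. The knockouts lay inside the control range, with a spread of 0.366% of the mean against 5.91% in controls.

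**Figure D3:**
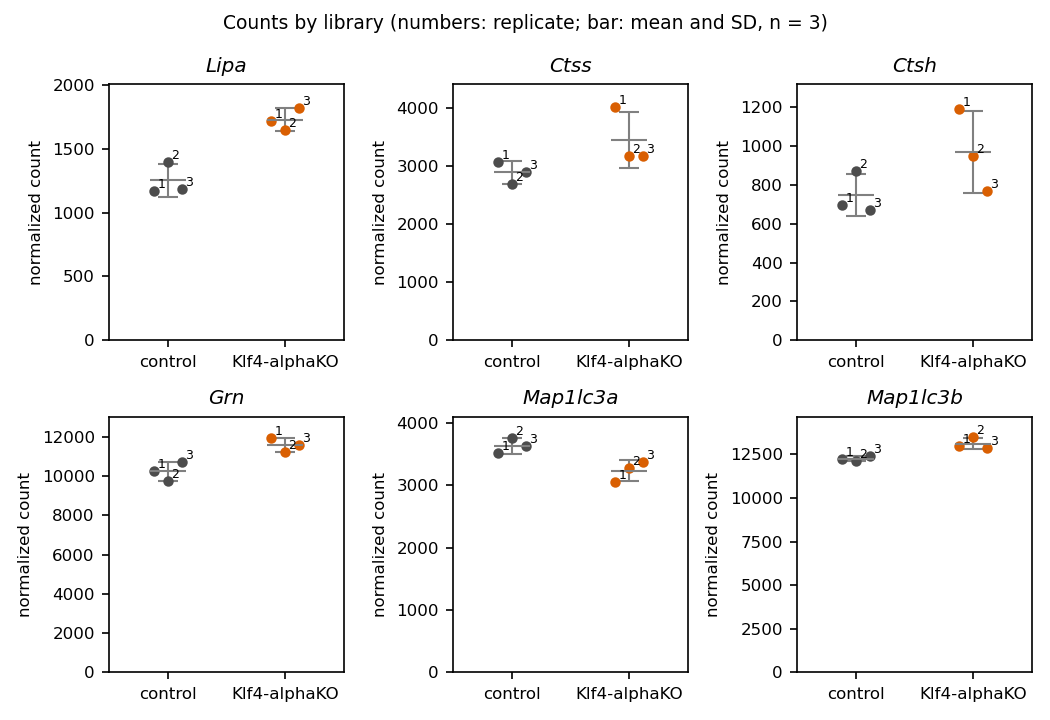
Normalized counts of 6 genes (y axes from 0) in each library, with the mean and SD (n = 3) of control and Klf4-alphaKO; small numbers give the replicate. Lipa separates the groups, knockout replicate 1 is the highest library for Ctss and Ctsh, and Map1lc3a and Map1lc3b differ in opposite directions without passing the threshold.

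None of the 4 genes that start autophagy passed. Ulk1 encodes the kinase that starts autophagosome formation and Becn1 a subunit of the lipid kinase complex that follows it; Wipi1 and Wipi2 bind its lipid product. Ulk1, Becn1 and Wipi2 had log2 fold changes of 0.02, 0.02 and 0.03, with intervals within the narrower bound. Wipi1 was at 5876, 5678 and 8157 normalized counts in controls and 5504, 6128 and 5525 in knockouts. Only control replicate 3 stood away from the rest, and the log2 fold change of -0.20 (DESeq2 adjusted p = 0.625) was -0.014 without it.

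The conjugation machinery, Atg7 (the activating enzyme) and the Atg12, Atg5 and Atg16l1 complex that attaches Atg8 proteins to lipid, had log2 fold changes from -0.10 (Atg12) to 0.06 (Atg7). All 4 intervals lay within the narrower bound and no call was made.

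Within the Atg8 family the members did not all lean the same way, and none passed. Map1lc3a was at 3509, 3756 and 3620 normalized counts in controls and 3043, 3277 and 3367 in knockouts. Every knockout was below every control, the only member so arranged (log2 fold change -0.17 ± 0.08 SE, DESeq2 adjusted p = 0.377). Map1lc3b was at 12213, 12128 and 12405 normalized counts in controls and 12988, 13500 and 12875 in knockouts, all above the controls (log2 fold change 0.10 ± 0.06, adjusted p = 0.587). Map1lc3b overlaps Zcchc14 on the opposite strand and Gm20388 on its own. The ratio of Map1lc3a to Map1lc3b counts, chosen after the values were seen and not tested, was 0.296 ± 0.012 (SD, n = 3) in controls and 0.246 ± 0.014 (SD, n = 3) in knockouts. Gabarap and Gabarapl1 held most of the family's transcripts per length, 44.9% ± 2.02 and 31.6% ± 1.60 of its TPM in controls and 43.4% ± 0.75 and 33.6% ± 0.48 in knockouts. Gabarapl1 was at 20373, 20828 and 19834 normalized counts in controls and 20897, 21582 and 21051 in knockouts, a narrow separation of 4.08% (95% interval -4.14% to 13.0%). Gabarap and Gabarapl2 overlapped between groups, at log2 fold changes of -0.09 and -0.05.

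The spread among libraries was wider in controls. The median coefficient of variation over the 39 members was 5.87% in controls and 3.16% in knockouts; over the genes in the same range of mean counts it was 7.07% and 4.62%. Control replicate 3 was the highest control for 22 members and the highest of all 6 libraries for 11, among them Wipi1, Hexa and Glb1. Control replicate 2 was the lowest of the 6 for 16 members. This differed from the order on the first principal component, where the 3 controls lay together.

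**Figure D4:**
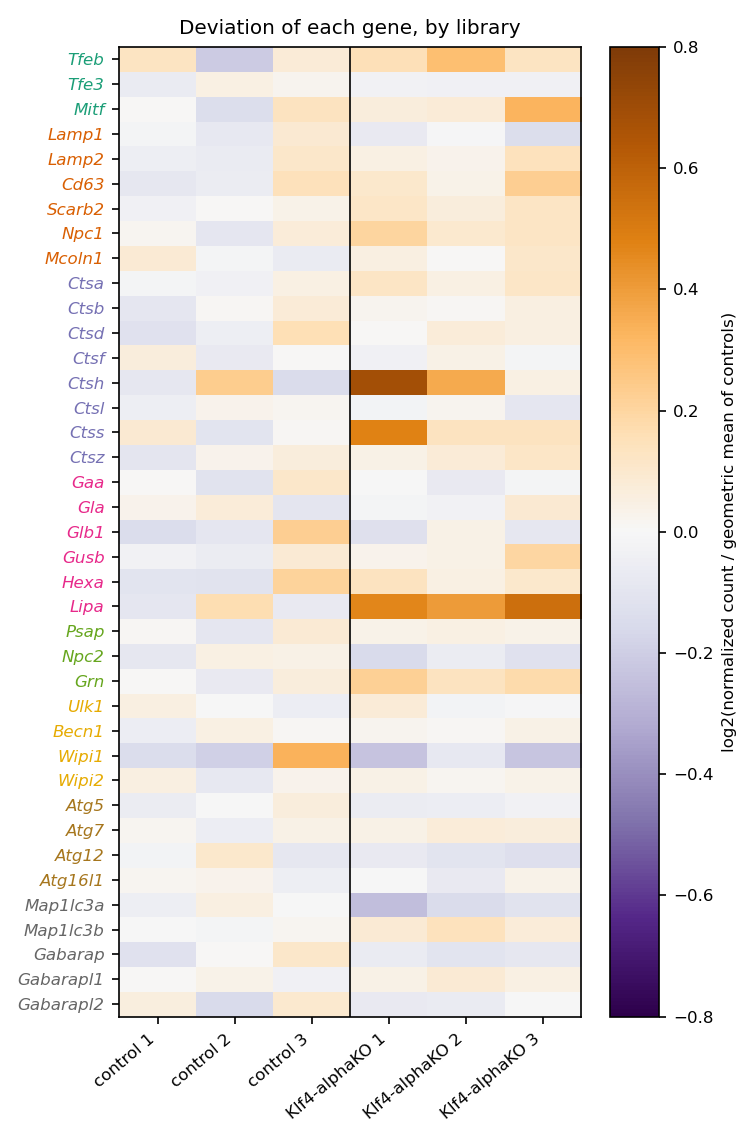
Log2 ratio of each gene's normalized count in each library (columns) to the geometric mean of the controls, for the 39 genes (rows); orange is higher and purple lower. Lipa is orange in all 3 knockout columns, Ctsh and Ctss mainly in knockout replicate 1, and Wipi1 in control replicate 3.

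A further 6 lists, written with earlier results of these data known, cover the rest of the pathway with 136 genes in the table, of which 134 were given an adjusted p. Only 1 gene passed, Ctsk, and it was higher; 133 did not pass, and 81 of 136 estimates were above 0. Called genes were 0.746% of these lists, beside 2.19% of all genes, but without control replicate 3 the calls on these lists went from 1 to 12, all higher, and those of all genes from 389 to 952. Ctsk encodes cathepsin K, a collagen-degrading protease. It was at 230, 198 and 159 normalized counts in controls and 349, 347 and 372 in knockouts, without overlap (log2 fold change 0.86 ± 0.19 SE, DESeq2 adjusted p = 0.00136; edgeR adjusted p = 0.176). It was the single call among 31 hydrolases given an adjusted p.

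Of 22 further membrane and sorting genes none passed. All 22 intervals lay within 1.5-fold, and 14 (63.6%) within the narrower bound. In 6 of the 22 (27.3%) the groups were apart, all 6 higher, beside 18.0% of all genes with a mean of at least 50 normalized counts. An unadjusted DESeq2 p under 0.05 was found for 4 (18.2%), beside 12.2% of all genes with such a mean. The smallest unadjusted p-values on this list were those of Cln3, at 2440 ± 64.6 and 2853 ± 29.7 normalized counts (DESeq2 adjusted p = 0.0907, and 0.0484 without control replicate 3), and of the cystine exporter gene Ctns (adjusted p = 0.131). The 17 subunits and accessory genes of the V-ATPase, the proton pump that acidifies lysosomes and secretory granules, gave 0 calls, and in 0 of the 17 were the groups apart, beside 18.0% of all genes with a mean of at least 50 normalized counts. Their log2 fold changes ran from -0.15 (Atp6v1e1) to 0.17 (Tcirg1), with adjusted p-values of 0.47 and 0.624 for these genes. In edgeR, too, 0 of the 17 were called, with 0 at an unadjusted p under 0.05, as in DESeq2, where that share was 12.2% of all genes with such a mean.

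None of 28 further genes of the autophagy machinery passed, 27 of them with intervals within the narrower bound. Atg2b (log2 fold change 0.16) and Uvrag (0.14) had the smallest unadjusted p-values. Of 16 autophagy receptors none passed; Tex264 and Retreg1, both receptors for the endoplasmic reticulum, had log2 fold changes of 0.20 and 0.39 (adjusted p = 0.187 and 0.194), and Tex264 passed without control replicate 3 (0.0400). Retreg1 was at 1515, 1510 and 2076 normalized counts in controls and 2580, 2235 and 1872 in knockouts, with overlap, and passed without control replicate 3 (0.00234). Among 20 genes of mTORC1 and of the control of TFE factors given an adjusted p, none passed. Of all 21 on this list, 6 (28.6%) had an unadjusted p under 0.05 and in 7 (33.3%) the groups were apart, 5 higher and 2 lower, beside 12.2% and 18.0% of all genes with a mean of at least 50 normalized counts. Tfec, whose mean is below that, is counted in both shares of the list. Over the 6 lists together these shares were 11.8% and 18.4%. Rragd, a Rag GTPase that brings TFE factors to lysosomes, was at 7910, 7223 and 8571 normalized counts in controls and 9980, 9337 and 9222 in knockouts, without overlap (DESeq2 adjusted p = 0.0651; 0.0493 with TMM factors and 0.000313 without control replicate 3). For Foxo3, a transcription factor gene, the log2 fold change was -0.34 with an adjusted p of 0.126, and it passed as lower without control replicate 2 (-0.45, adjusted p = 0.0266).

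Because whole islets were sequenced, fewer cells of a type and less RNA per cell cannot be told apart, and markers of other cells moved between the groups. Of 10 macrophage markers 4 passed as higher in knockouts (C1qb, C1qc, Mrc1 and Cd68) and none as lower, with Mrc1 at 171, 123 and 151 against 349, 223 and 245 normalized counts. The most abundant, C1qa, had an estimate below 0 (log2 fold change -0.27), and the summed list overlapped, at 12121 to 13217 in controls and 12670 to 14820 in knockouts. Knockout replicate 1 had the highest sum, as it had the highest Ctss and Ctsh. Of 8 mesenchymal markers 5 passed as higher, among them Col1a1, and the sums were 53144 to 69143 and 97488 to 104359 normalized counts. Acta2, on the same list, was lower in every knockout (2558, 3274 and 2897 against 2495, 2234 and 2417 normalized counts) without passing. Lipa and Ctsk were higher in the same libraries as the mesenchymal sums. Both genes were picked out as higher in knockouts, so this match was fixed by that choice and does not show their source. The 8 acinar markers did not pass, but all 8 were higher in every knockout than in any control, with sums of 570011 to 1149910 and 1450660 to 2059730. Of 8 alpha-cell markers 4 passed as lower (Gcg, Ttr, Irx2 and Slc38a5), and their sums were 4128400 to 5934520 and 3060350 to 3758950, nearly all of it Gcg. Gc and Slc7a2, on the same list, had log2 fold changes of 0.0025 and 0.035. Of 6 duct markers 2 passed as higher (Krt7 and Muc1), with sums of 25474 to 28903 and 31084 to 35765 normalized counts, most of them Krt7. Sox9 and Cftr, on the same list, had log2 fold changes of -0.11 and -0.51 and did not pass. Of 8 beta-cell markers 1 passed as lower (Nkx6-1), and the sums, most of them Ins2 and Ins1, overlapped. In every knockout 3 of the 8 (Mafa, Slc2a2 and Nkx6-1) were lower than in any control, and 0 were higher. The estimates were above 0 for 4 of the 8 and below 0 for 4. Lymphocyte sums were 1630 to 1724 in controls and 1345 to 1430 in knockouts, nearly all of it Cd79a. Of the 7 lymphocyte markers 4 were lower in every knockout, and only 1 was given an adjusted p, which did not pass. In edgeR 3 of the mesenchymal markers passed, and 0 of the macrophage, alpha-cell, beta-cell, duct, acinar or lymphocyte markers. The part of other cells in the values of Lipa, Ctss, Ctsh and Ctsk was not tested.

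**Figure D5:**
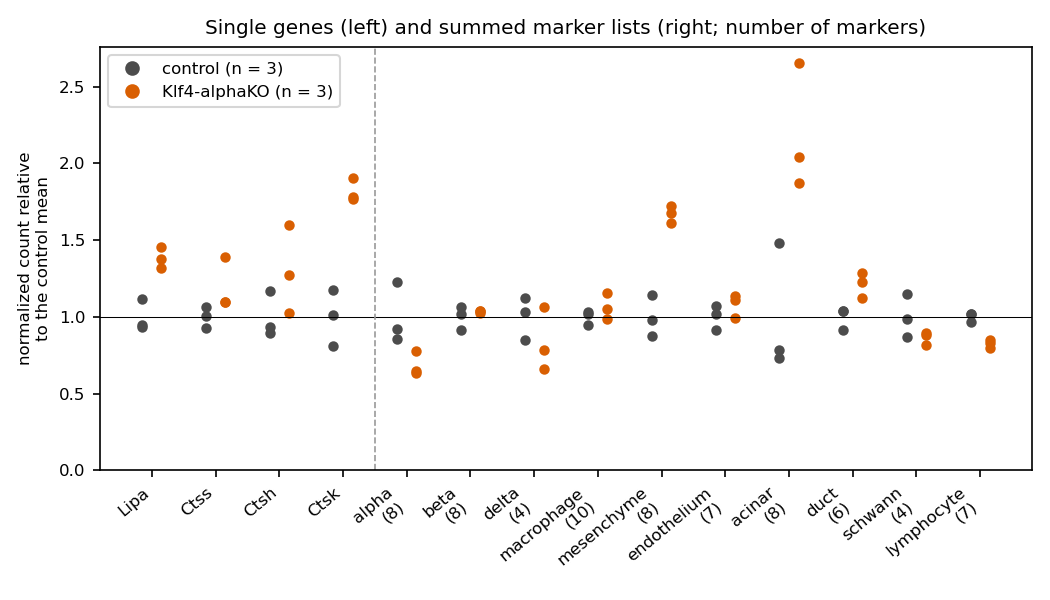
Normalized count relative to the control mean (y axis) for Lipa, Ctss, Ctsh and Ctsk and for the summed markers of 10 cell types (x axis, number of markers in brackets), with 1 point per library, controls grey and Klf4-alphaKO orange. Mesenchymal, acinar and duct sums are higher and alpha-cell and lymphocyte sums lower in every knockout library, and macrophage sums overlap.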

How the data were processed

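Polyadenylated RNA from whole islets was sequenced in 6 libraries, 3 per group. Per the submitters' processing notes, reads were handled with FastQC, STAR, featureCounts and DESeq2 on mm10; the strand setting and annotation are not given in the sources used here. The deposited values are raw counts per gene; all 55536 identifiers and symbols equal those of GENCODE M21. The main test was DESeq2 1.42.0 (R 4.3.3) with a genotype term, on 25210 genes with at least 10 counts in total and a Benjamini-Hochberg adjusted p under 0.05; edgeR 4.0.16 was the alternative beside other filters, TMM factors, a replicate block and leaving out each library. Intervals are 95%, from 1.96 standard errors. The members and lists were chosen with earlier results of these data known. All members are described; of the other lists the text names called genes, or otherwise those fixed by smallest unadjusted p or largest change. Replicates differed by more than sampling noise in all 6 pairs within groups. Without a known strand setting, 13 members overlapped by a gene on the opposite strand, and 9 by one on the same strand, have uncertain counts.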

Additional observations from a re-analysis of the deposited data

How the results depend on the processing

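Over 51 genes and 12 alternatives, 584 of 612 results had the same direction and the same side of the threshold, 4 lost the call, 9 gained it and 15 changed sign. With edgeR 29 genes passed (24 higher and 5 lower, against 272 and 117 in DESeq2), 0 members (5 at an unadjusted p under 0.05) and 0 genes of the other lists (19 at that p). With TMM factors 2 genes of the other lists passed. Leaving out single libraries gave 153 (without knockout replicate 1) to 952 genes (without control replicate 3), 0 to 3 members and 1 to 12 genes of the other lists; Lipa, Hexa and Grn were the 3 members without control replicate 3, and 0 passed without knockout replicate 1 or 3. The cause was not tested. The members' median log2 fold change stayed between 0.027 and 0.060. Signs changed only when a library was left out, over these log2 ranges: Atg16l1 -0.038 to 0.017, Becn1 -0.0028 to 0.047, Ctsb -0.019 to 0.068, Ctsd -0.020 to 0.12, Ctsf -0.041 to 0.027, Gaa -0.084 to 0.025, Gla -0.031 to 0.050, Glb1 -0.13 to 0.060, Psap -0.0065 to 0.079, Ulk1 -0.018 to 0.042 and Wipi2 -0.0096 to 0.053. Same-numbered samples did not deviate together (correlations -0.048, -0.059 and 0.010), so no pairing by number was visible. These values cannot tell whether same-numbered samples were handled together. With the replicate block 405 genes, 1 member and 1 gene of the other lists passed, and the members' median was 0.039.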
